A study of Homo sapiens with 8 samples.

Results

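The 10 genes described here encode secreted inflammatory signals or the enzymes that make one: the chemokines CXCL1, CXCL2, CXCL3, CXCL8, CCL15 and CCL20, the cytokines IL6 and LIF, and the prostaglandin enzymes PTGS2 and PTGES. They were taken by gene symbol from the probe table, 10 of the 18132 genes with a probe set of their own, and the label fits the known function of each. Where a gene had several probe sets, the one brightest on average over the arrays was used. The genes were measured in H3122, a lung adenocarcinoma cell line that carries the EML4-ALK fusion kinase, and in its ceritinib-resistant derivatives H3122-LR3 and H3122-LR2. LR3 cells were measured after 6 h with 1000 nM ceritinib and untreated. LR2 cells and parental H3122 cells were each measured after 6 h with 1000 nM crizotinib, after 6 h with 1000 nM ceritinib, and untreated. Untreated cells are listed at 0 nM and 0 h, and no array of cells kept for 6 h without inhibitor is listed. A difference from untreated therefore also spans those 6 h, and the 2 cannot be told apart. Crizotinib and ceritinib both inhibit the ALK kinase. All cells carry the fusion and grew in RPMI with serum. Whether LR2 and LR3 are single clones, and whether they were kept in ceritinib before the experiment, was not given in the sources used here. Each of the 8 conditions had 1 array and no replicate.

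Values are log2 signals, so a difference of 1 is a 2-fold change. The overall median of the value table, 5.36, served as the floor below which a level is called dim. Array medians lay between 5.31 and 5.36, except for 5.46 on the LR2 ceritinib array. All 7 epithelial and lung markers looked at, EPCAM and NKX2-1 among them, were above the floor on every array. Of the fibroblast markers 0 of 6 reached it on any array. Of 5 leukocyte markers at most 1, CD68, did so on an array, and PTPRC stayed between 2.46 and 3.05. Of 5 endothelial markers 2 or 3 were above the floor on each array, while PECAM1 stayed between 4.58 and 4.85. Array signal per gene cannot tell fewer expressing cells from less RNA per cell.

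As background, CXCL8 and the neighbouring CXCL1, CXCL2 and CXCL3 are chemokines with a shared sequence motif that draw neutrophils through the receptor CXCR2. Their genes sit close together on chromosome 4, and CXCL1, CXCL2 and CXCL3 are near copies of each other. CCL20 attracts lymphocytes and dendritic cells through CCR6, and CCL15 acts on CCR1. IL6 and LIF signal through receptors that share the gp130 chain, encoded by IL6ST, to activate STAT3. PTGS2, the inducible cyclooxygenase, oxidises arachidonic acid, and PTGES turns the product into prostaglandin E2. Several of these genes are induced quickly by growth factors and cytokines through NF-kB and AP-1, and their short-lived mRNAs let levels drop within hours.

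The promoters of CXCL8, PTGS2 and CXCL2, which were 2-fold or more lower with ALK inhibitor in parental cells, are shown with that of CXCL1, the near copy of CXCL2, and that of PTGES, which differed little with inhibitor. Each is the 250 bases before the RefSeq start (GRCh38.p14), 5′ to 3′ on the gene's strand, and 9 of the 10 genes, all but LIF, had an entry. The windows are chr4:73740319-73740568 (plus strand) for CXCL8, chr4:74099196-74099445 (minus strand) for CXCL2, chr4:73869143-73869392 (plus strand) for CXCL1, chr1:186680424-186680673 (minus strand) for PTGS2 and chr9:129753043-129753292 (minus strand) for PTGES. Capitals mark matches on either strand to the NF-kB consensus GGGRNNYYCC, the AP-1 motif TGANTCA, the STAT motif TTCNNNGAA or the TATA motif TATAAA. R stands for A or G, Y for C or T and N for any base.
CXCL8: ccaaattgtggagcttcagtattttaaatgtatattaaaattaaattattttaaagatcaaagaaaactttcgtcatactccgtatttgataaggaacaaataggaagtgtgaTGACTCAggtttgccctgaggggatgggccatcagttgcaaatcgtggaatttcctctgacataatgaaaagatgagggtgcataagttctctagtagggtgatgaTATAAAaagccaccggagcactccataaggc
CXCL2: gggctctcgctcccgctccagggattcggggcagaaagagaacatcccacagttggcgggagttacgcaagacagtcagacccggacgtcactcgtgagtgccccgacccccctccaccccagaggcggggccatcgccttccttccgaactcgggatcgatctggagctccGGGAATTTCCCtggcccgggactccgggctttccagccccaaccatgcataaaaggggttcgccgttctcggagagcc
CXCL1: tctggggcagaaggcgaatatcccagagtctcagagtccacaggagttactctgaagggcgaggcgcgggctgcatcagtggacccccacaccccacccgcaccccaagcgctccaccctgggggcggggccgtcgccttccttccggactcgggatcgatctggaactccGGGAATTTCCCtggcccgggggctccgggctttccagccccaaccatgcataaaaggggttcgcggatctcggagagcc
PTGS2: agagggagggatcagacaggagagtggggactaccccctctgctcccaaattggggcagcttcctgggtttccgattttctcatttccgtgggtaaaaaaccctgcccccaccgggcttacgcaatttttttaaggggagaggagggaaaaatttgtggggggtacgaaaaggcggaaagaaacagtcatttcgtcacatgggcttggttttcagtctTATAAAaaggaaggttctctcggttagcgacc
PTGES: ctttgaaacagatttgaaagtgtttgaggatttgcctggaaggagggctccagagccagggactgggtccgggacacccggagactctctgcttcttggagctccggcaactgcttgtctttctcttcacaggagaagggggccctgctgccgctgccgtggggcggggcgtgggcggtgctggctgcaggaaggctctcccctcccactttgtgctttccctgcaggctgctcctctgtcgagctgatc

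In CXCL1 and CXCL2 the capitals are an NF-kB match, which begins 79 bases before the start in CXCL1 and 78 before it in CXCL2. It reads the same way in CXCL3, whose window was 81.4% identical to that of CXCL1 in a global alignment. It matched on both strands, 1 base apart. In CXCL8 the capitals are an AP-1 match 137 bases upstream and a TATA match, and in PTGS2 a TATA match alone. The PTGES window held none of the 4 motifs. The NF-kB consensus matched 5 of the 9 windows (CXCL1, CXCL2, CXCL3, CCL20 and IL6), against 9.57% of 27305 human promoter windows of this length. CXCL1, CXCL2 and CXCL3 are near copies, so their matches do not count as separate. Stretches that miss the consensus by 1 letter are not counted, such as tggaatttcc in the CXCL8 window. AP-1 matched 1 of 9 against 6.6%, STAT 1 of 9 (CCL15) against 6.78%, and TATA 4 of 9 against 11.1%. These are letter matches only.

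Of the 10 genes, 8 were bright enough to test, with a signal above the floor on at least 2 arrays. CXCL3 and IL6 were dim on all 8 arrays. CXCL3 lay between 2.93 and 3.54 and IL6 between 4.6 and 5.02, so a change in them could hardly have been seen. CCL15 passed only through its LR3 arrays, and CCL20 was above the floor on 4 arrays.

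**Figure D1:**
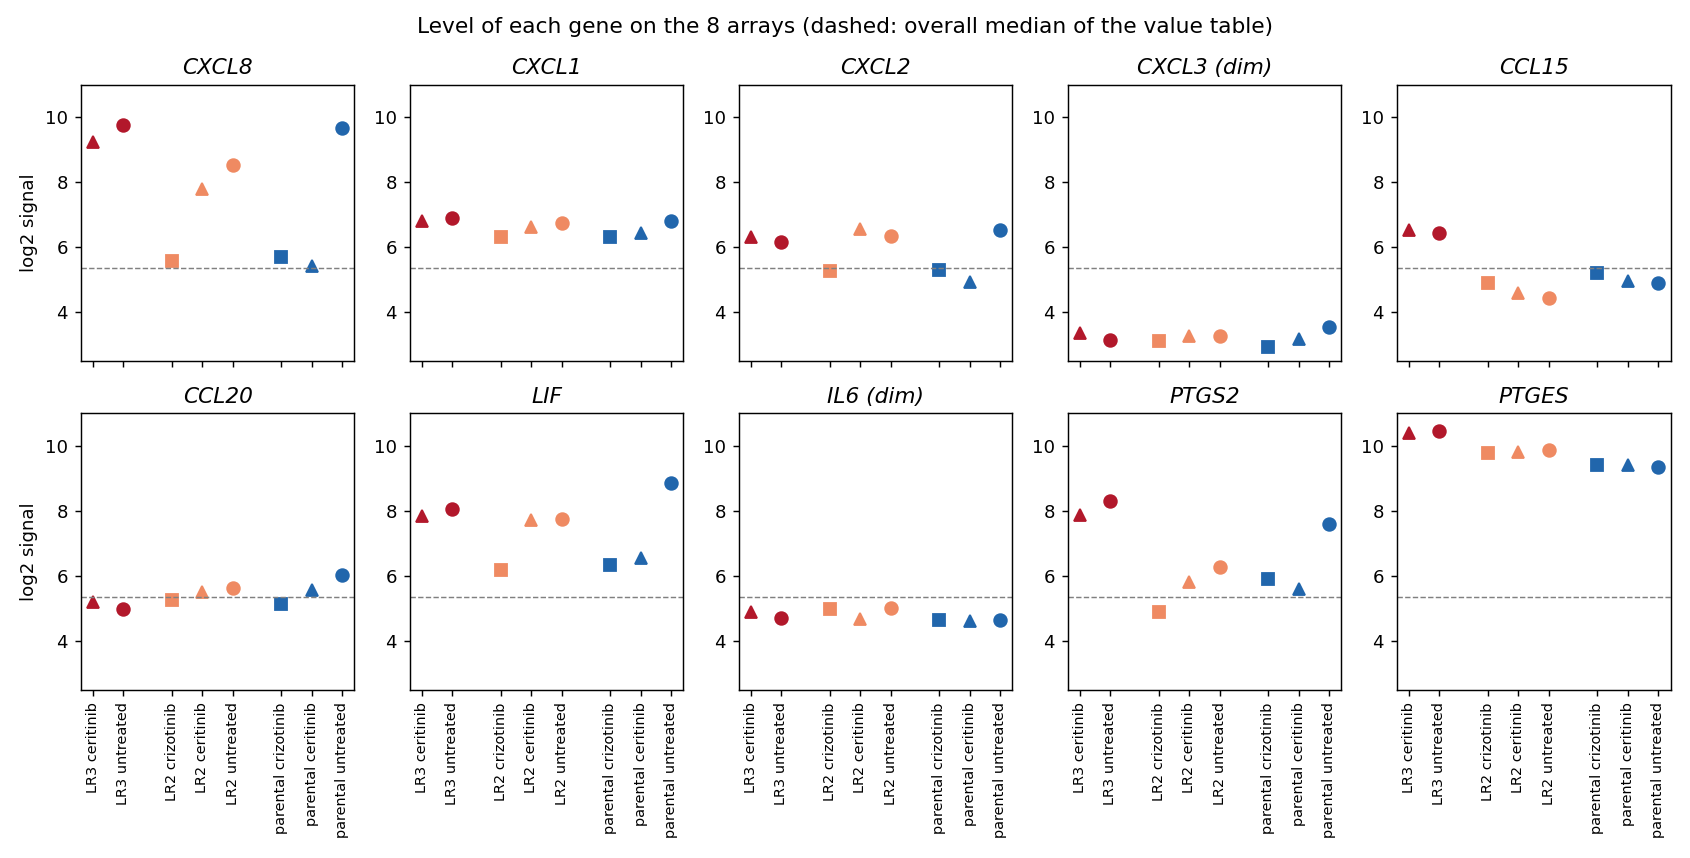
Log2 signal of each gene (vertical axes) on the 8 arrays (horizontal axes), with red for LR3, orange for LR2 and blue for parental cells, triangles for ceritinib, squares for crizotinib and circles for untreated cells. Each point is 1 array and the dashed line is the floor of 5.36. CXCL8, LIF and CXCL2 are lowest on the parental inhibitor arrays and the LR2 crizotinib array, PTGS2 is also low on the LR2 ceritinib array (5.82), and PTGES and CCL15 separate by line.

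The first comparison asked how the genes differed with ALK inhibitor in each line. In parental cells CXCL8, LIF, PTGS2 and CXCL2 were each at least 2-fold lower with either inhibitor than untreated. In LR2 cells the same 4 genes were at least 2-fold lower with crizotinib, and none was with ceritinib. With the mean of all probe sets, LIF (-0.60) and PTGS2 (-0.96) missed 2-fold with crizotinib in LR2 cells while CXCL8 (-2.61), CXCL2 (-1.04) and CXCL1 (-1.08) passed it. In LR3 cells none was 2-fold lower with ceritinib. PTGES and CCL15 did not share this pattern in any line.

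CXCL8 signal was 5.44 with ceritinib and 5.72 with crizotinib in parental cells, against 9.67 in untreated parental cells. These are differences of -4.23 and -3.95, or 18.8-fold and 15.5-fold lower, and both inhibitor arrays lay just above the floor. In LR2 cells CXCL8 was 5.59 with crizotinib, 7.67-fold lower, and 7.80 with ceritinib, 1.66-fold lower, against 8.53 untreated. In LR3 cells it was 9.24 with ceritinib, against 9.76 untreated, a difference of -0.52. The crizotinib array of LR2 thus sat with the parental inhibitor arrays, and both LR3 arrays sat within 0.5 of the untreated parental array.

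LIF was 6.56 with ceritinib and 6.35 with crizotinib in parental cells, against 8.85 untreated, or 4.89-fold and 5.66-fold lower. The LIF probe set used bears a suffix for possible cross-hybridization. The next brightest LIF probe set differed there by only -1.02 with ceritinib and -0.91 with crizotinib. In LR2 cells LIF was 6.19 with crizotinib and 7.72 with ceritinib, against 7.74 untreated. In LR3 cells it was 7.83 with ceritinib, against 8.07 untreated. The ceritinib arrays of both resistant lines therefore differed from their own untreated arrays by -0.02 in LR2 and -0.24 in LR3. PTGS2 was 5.61 with ceritinib and 5.91 with crizotinib in parental cells, against 7.59 untreated, or 3.94-fold and 3.20-fold lower. In LR2 cells it was 4.88 with crizotinib, which is dim, and 5.82 with ceritinib, against 6.29 untreated. The LR2 ceritinib array thus lay below the parental crizotinib array. In LR3 cells PTGS2 was 7.87 with ceritinib, against 8.31 untreated, and both LR3 arrays were above every array of the other lines.

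CXCL2 was 4.94 with ceritinib and 5.31 with crizotinib in parental cells, both dim, against 6.53 untreated. In LR2 cells it was 5.29 with crizotinib, also dim, and 6.56 with ceritinib, against 6.34 untreated. In LR3 cells it was 6.32 with ceritinib, against 6.17 untreated. The 3 arrays with dim CXCL2 are those on which CXCL8 and LIF were lowest. CXCL1 on its brightest probe set was 6.44 with ceritinib and 6.31 with crizotinib in parental cells, against 6.81 untreated. It was 6.31 with crizotinib and 6.62 with ceritinib in LR2 cells, against 6.76 untreated, and 6.8 with ceritinib in LR3 cells, against 6.9 untreated. The same 3 arrays were lowest, with smaller differences from untreated of -0.37 with ceritinib and -0.50 with crizotinib in parental cells and -0.45 with crizotinib in LR2 cells. Its other probe set was 5.03 with ceritinib and 5.37 with crizotinib in parental cells, against 6.91 untreated. There it was 5.23 with crizotinib and 6.88 with ceritinib in LR2 cells, against 6.93 untreated, and 7.0 with ceritinib in LR3 cells, against 6.75 untreated. CXCL1 was therefore lowest on the same 3 arrays on both probe sets, with differences past 2-fold on only 1 of them. With the mean of both, CXCL1 differed by -1.12 with ceritinib and -1.02 with crizotinib in parental cells. Probe sets of the near copies CXCL1 and CXCL2 may share signal, and 1 further probe set is listed for both.

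CCL20 was 5.56 with ceritinib and 5.15 with crizotinib in parental cells, against 6.03 untreated, differences of -0.47 and -0.88. In the resistant lines it differed by at most 0.36 in size from the untreated array. PTGES differed from untreated by no more than 0.09 in size in any line, and CCL15 was 0.06 to 0.45 higher than untreated.

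**Figure D2:**
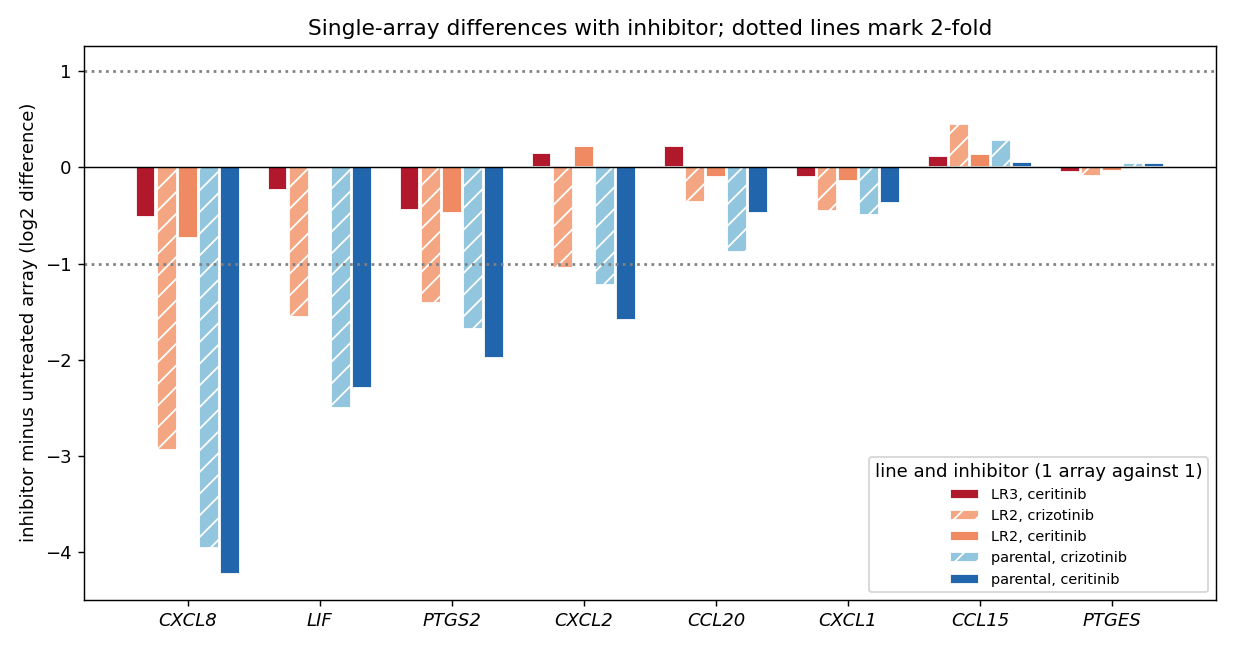
Log2 difference of each inhibitor array from the untreated array of its line (vertical axis) for the 8 genes tested, with bars for LR3 ceritinib, LR2 crizotinib, LR2 ceritinib, parental crizotinib and parental ceritinib from left to right. Hatched bars are crizotinib, and the dotted lines mark 2-fold. CXCL8 reached -4.23 in parental cells with ceritinib, against -0.73 in LR2 and -0.52 in LR3.

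Counted over the 8 genes tested, 4 were 2-fold or more lower with crizotinib in parental cells, against 0.741% of the 10527 genes tested in the same pair of arrays. With ceritinib in parental cells the count was 4 of 8, against 0.902% of all genes. These counts share the untreated parental array, and the genes were chosen with earlier results of these data known. With crizotinib in LR2 cells it was 4 of 8 against 0.693%. With ceritinib it was 0 of 8 in LR2 cells against 0.0095%, and 0 of 8 in LR3 cells against 0% of all genes. None of the 8 was 2-fold higher in any of these pairs, against 0.655% of all genes with crizotinib and 0.608% with ceritinib in parental cells, 0.475% with crizotinib and 0.019% with ceritinib in LR2 cells, and 0.038% in LR3 cells. The median of the 8 differences was -1.05 with crizotinib and -1.03 with ceritinib in parental cells, -0.75 with crizotinib and -0.07 with ceritinib in LR2 cells, and -0.08 in LR3 cells. The medians of all genes lay between 0.01 and 0.10. With the mean of all probe sets in place of the brightest, the counts of 4 became 5 in each parental pair and 3 for LR2 with crizotinib.

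Between the inhibitors, the LR2 ceritinib array was 2-fold or more above the LR2 crizotinib array for 3 of 8 genes and below it for 0, against 0.503% and 0.0665% of all genes. The differences were 2.21 for CXCL8, 1.53 for LIF, 1.27 for CXCL2 and, short of 2-fold, 0.94 for PTGS2. The LR2 ceritinib array is also the one with the higher array median. Centring each array left the counts at 3 of 8 here, 0 of 8 for LR2 ceritinib against untreated and 4 of 8 for LR2 crizotinib against untreated. With the mean of all probe sets these counts were 2, 0 and 3. In parental cells ceritinib and crizotinib differed by -0.28 for CXCL8, 0.21 for LIF, -0.37 for CXCL2 and -0.30 for PTGS2, and 0 of 8 genes were 2-fold higher or lower, against 0.019% and 0% of all genes.

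None of the differences from untreated passed a test across arrays, and the differences between the inhibitors were not tested. In limma's model of 6 conditions (line, with inhibitor or without, and the inhibitors counted as 1), 0 of 10527 genes (0%) had an adjusted p under 0.05 for the response of parental, LR2 or LR3 cells. At an unadjusted p under 0.05 there were 1849, 1015 and 499 genes, and 6, 0 and 0 of the 8 genes here. CXCL8 differed by -4.09 ± 0.83 in parental cells (SE, adjusted p = 0.144), PTGS2 by -1.83 ± 0.38 (adjusted p = 0.147) and LIF by -2.39 ± 0.58 (adjusted p = 0.161). In LR2 cells CXCL8 differed by -1.83 ± 0.83 (adjusted p = 0.549), an average over a crizotinib and a ceritinib array that lay 2.21 apart. The model counts that gap as spread and uses 1 spread per gene for all lines. The gap therefore also widened the SEs of CXCL8 in parental and LR3 cells, where a missing call cannot show a missing response. The response of LR3 minus that of parental cells was 3.57 ± 1.27 for CXCL8 (adjusted p = 0.91) and 2.15 ± 0.89 for LIF (adjusted p = 0.91). The response of LR2 minus that of parental cells was 2.26 ± 1.18 for CXCL8 (adjusted p = 0.998). No gene on the table was called for either difference of responses, so whether the responses differ between lines was not shown by the test.

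**Figure D3:**
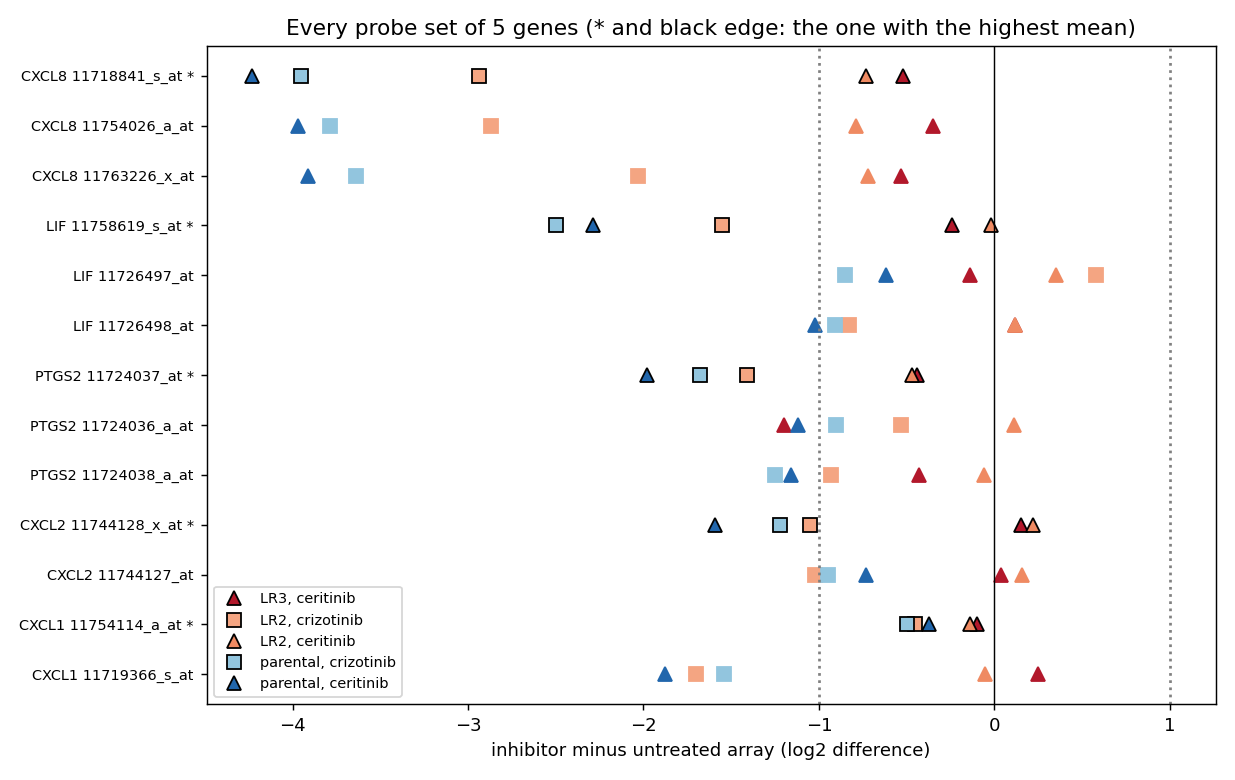
Log2 difference of each inhibitor array from the untreated array of its line (horizontal axis) for every probe set of CXCL8, LIF, PTGS2, CXCL2 and CXCL1, with an asterisk at the one used. Triangles are ceritinib and squares crizotinib, in red for LR3, orange for LR2 and blue for parental cells. The 3 CXCL8 probe sets run together, while the 2 CXCL1 probe sets differ in size and 1 dim LIF probe set differs from the others in LR2.

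Other probe sets served as a check. The ones used for CXCL8, LIF, CXCL2 and CCL15 bear suffixes for possible cross-hybridization. All 3 CXCL8 probe sets differed from untreated by -4.23 to -3.64 with inhibitor in parental cells, by -2.94 to -2.03 with crizotinib in LR2 cells and by -0.79 to -0.72 with ceritinib in LR2 cells. For PTGS2 the other probe sets gave -0.90 and -1.25 with crizotinib and -1.12 and -1.16 with ceritinib in parental cells, and -0.53 and -0.93 with crizotinib in LR2 cells. For LIF they gave -0.85 and -0.91 with crizotinib and -0.62 and -1.02 with ceritinib in parental cells, and 0.58 and -0.83 with crizotinib in LR2 cells. The other CXCL2 probe set gave -0.95 with crizotinib and -0.73 with ceritinib in parental cells, and -1.02 with crizotinib in LR2 cells. Several of these values missed 2-fold, so the sizes for LIF, PTGS2 and CXCL2 depended on the probe set. The dimmer LIF probe set, below the floor on every array, was the one higher with crizotinib in LR2 cells, opposite to the other LIF probe sets. In LR3 cells the dimmest PTGS2 probe set differed by -1.20 with ceritinib, against -0.44 and -0.43 on the brighter ones.

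The second comparison asked which of the genes differed between lines across agents. PTGES was higher in both resistant lines and CCL15 was higher in LR3. PTGS2 was higher in LR3 than in both other lines. CCL20 was lower in LR3, where it was dim, and the filter favoured that direction. The line differences of CXCL8, LIF and CXCL2 varied with the agent, and these genes and CXCL1 were not called.

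PTGES was 10.41 with ceritinib and 10.46 untreated in LR3 cells, and 9.77 with crizotinib, 9.82 with ceritinib and 9.86 untreated in LR2 cells. In parental cells it was 9.40 with either inhibitor and 9.35 untreated. The 3 lines did not overlap. PTGES rose by 1.04 ± 0.08 or 2.06-fold in LR3 (SE of limma, adjusted p = 0.000207, higher in 2 of 2 matched arrays) and by 0.43 ± 0.07 or 1.35-fold in LR2 (adjusted p = 0.00398, higher in 3 of 3), relative to parental cells. LR3 exceeded LR2 by 0.61 ± 0.08 (adjusted p = 0.00197). The other 2 PTGES probe sets, fitted on their own, gave 0.74 ± 0.09 and 0.70 ± 0.09 for LR3 and 0.31 ± 0.08 and 0.27 ± 0.08 for LR2, all called.

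CCL15 was 6.55 with ceritinib and 6.43 untreated in LR3 cells, and 4.90 with crizotinib, 4.59 with ceritinib and 4.45 untreated in LR2 cells. In parental cells it was 5.20 with crizotinib, 4.98 with ceritinib and 4.92 untreated. Only the LR3 arrays were above the floor, so the gene was tested because it is bright there, and its test is not independent of that. The fitted difference of LR3 from parental cells was 1.56 ± 0.08 (adjusted p = 3.32e-05). The difference of LR2 from parental cells, between dim levels, was -0.39 ± 0.07 (adjusted p = 0.00659). The only CCL15 probe set bears the suffix for possible cross-hybridization. Another, shared with the read-through gene CCL15-CCL14, was 3.45 with ceritinib and 4.16 untreated in LR3 cells and 2.80 to 3.04 in the other lines.

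PTGS2 rose by 1.41 ± 0.32 or 2.66-fold in LR3 relative to parental cells (adjusted p = 0.0193, higher in 2 of 2 matched arrays) and stood 2.12 ± 0.32 or 4.33-fold above LR2 (adjusted p = 0.00385). The matched differences from parental cells were 2.26 with ceritinib and 0.72 untreated. Both calls were lost without the LR3 ceritinib array, at 1.02 against parental cells (adjusted p = 0.179) and 1.72 against LR2 (adjusted p = 0.0535). In LR2 PTGS2 differed from parental cells by -0.71 ± 0.27 (adjusted p = 0.104), with matched differences of -1.03 with crizotinib, 0.21 with ceritinib and -1.30 untreated. Without the parental ceritinib array that difference was -1.18 (adjusted p = 7.76e-05).

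CCL20 was 5.19 with ceritinib and 4.97 untreated in LR3 cells, both dim. It was 5.26, 5.52 and 5.62 in LR2 cells with crizotinib, with ceritinib and untreated. CCL20 passed the filter only through parental and LR2 arrays, so a lower value in LR3 was favoured and its test is not independent of that. The matched differences of LR3 from parental cells were -0.37 with ceritinib and -1.06 untreated. In limma CCL20 fell by 0.66 ± 0.15 in LR3 relative to parental cells (adjusted p = 0.0208, lower in 2 of 2 matched arrays). It differed by -0.55 ± 0.15 from LR2 (adjusted p = 0.042). Without the untreated LR3 array these values were -0.41 (adjusted p = 0.193) and -0.29 (adjusted p = 0.34). In LR2 it differed from parental cells by -0.11 ± 0.13 (adjusted p = 0.582).

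CXCL8 in LR3 differed from parental cells by 3.80 with ceritinib, or 13.9-fold, and by 0.09 untreated. In LR2 it differed from parental cells by -0.13 with crizotinib, 2.36 with ceritinib and -1.14 untreated. The lines thus differed one way with ceritinib and, in LR2, the other way without an inhibitor. Across agents limma gave 1.82 ± 0.72 for LR3 (adjusted p = 0.111) and 0.36 ± 0.62 for LR2 (adjusted p = 0.718), and neither was called. Without the untreated parental array the LR3 difference was 2.90 (adjusted p = 0.0163), and without the parental ceritinib array the LR2 difference turned to -0.70 (adjusted p = 0.0371). LIF in LR3 differed by 1.27 with ceritinib and -0.78 untreated, and in LR2 by -0.16 with crizotinib, 1.16 with ceritinib and -1.11 untreated. CXCL2 differed by 1.38 with ceritinib and -0.36 untreated in LR3, and by -0.02 with crizotinib, 1.62 with ceritinib and -0.19 untreated in LR2. Across agents LIF differed from parental cells by 0.21 ± 0.43 in LR3 (adjusted p = 0.761) and -0.04 ± 0.37 in LR2 (adjusted p = 0.956). CXCL2 differed by 0.39 ± 0.38 in LR3 (adjusted p = 0.515) and 0.47 ± 0.33 in LR2 (adjusted p = 0.343). CXCL1 differed by 0.21 ± 0.09 in LR3 (adjusted p = 0.131) and 0.04 ± 0.08 in LR2 (adjusted p = 0.733).

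**Figure D4:**
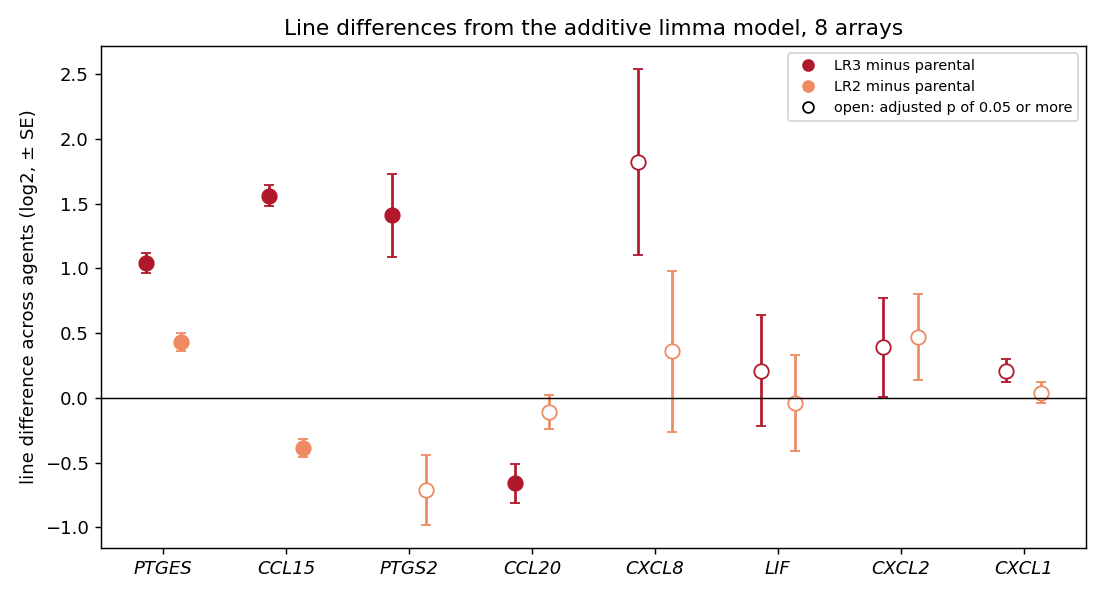
Line differences across agents (vertical axis, log2, with SE bars) of LR3 (red) and LR2 (orange) from parental cells for the 8 genes tested. Filled points had an adjusted p under 0.05 in limma. PTGES at 1.04 and 0.43 has short bars, while CXCL8 at 1.82 and 0.36 has the longest.

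In LR3 against parental cells 3 of 8 genes were called higher (PTGES, CCL15 and PTGS2), against 9.53% of all genes, and 1 lower (CCL20), against 12.1% (21.6% in either direction). In LR3 against LR2 the same 3 were called higher and CCL20 lower, against 7.29% and 12.3% (19.6% in either direction). CCL15 passed the filter only through LR3 and CCL20 only through the other lines, so these counts hold genes that had to differ and are a description. In LR2 against parental cells 1 was called higher (PTGES), against 12.8%, and 1 lower (CCL15), against 9.68% (22.5% in either direction), a share near that of all genes. Without the parental ceritinib array that count of 2 became 5, with CXCL8, LIF and PTGS2 lower. The comparisons with parental cells share the parental arrays. Nothing says that the arrays come from separate cultures, so the p-values reflect how far a line difference varied from one agent to the next and nothing on repeat cultures.

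With ceritinib alone, 6 of 8 genes were 2-fold or more higher in LR3 than in parental cells, against 1.01% of all genes. They were CXCL8, PTGS2, CCL15, CXCL2, LIF and PTGES, and 0 of 8 were 2-fold lower, against 1.43%. CCL15 had to be higher there, since it passed the filter only through LR3, and the count was 4 of 8 with the mean of all probe sets. In LR2 3 of 8 were, CXCL8, CXCL2 and LIF, against 1.28% of all genes, and 0 were lower, against 0.722%. Other CXCL8 probe sets gave 3.76 and 3.57 in LR3 and 2.32 and 2.25 in LR2. Other probe sets gave less for CXCL2 (0.39 in LR3, 0.62 in LR2) and LIF (0.09 and 0.88 in LR3, -0.08 and 0.81 in LR2). In LR3 they gave 0.94 and 1.67 for PTGS2 and 0.78 and 0.76 for PTGES. The CXCL2 probe set used bears the suffix for possible cross-hybridization. Untreated, 2 of 8 were 2-fold higher in LR3 than in parental cells (0.465% of all genes), CCL15 and PTGES, and 1 lower (1.23%), CCL20, and for CCL15 and CCL20 the filter favoured that direction. Untreated LR2 cells had 3 of 8 genes 2-fold lower than parental cells (0.798%), CXCL8, LIF and PTGS2, and 0 higher (0.513%). The count of 3 was 1 with the mean of all probe sets. With crizotinib 1 of 8, PTGS2, was 2-fold lower in LR2 (0.988%) and 0 were higher (0.532%), and with the mean of all probe sets 0 were lower.

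LR3 also stood above LR2 for 3 of 8 genes by 2-fold or more, both with ceritinib (0.541% of all genes) and untreated (0.608%), and below it for 0 (1.35% and 1.05%). The genes were PTGS2, by 2.05 with ceritinib and 2.02 untreated, CCL15, by 1.96 and 1.98, and CXCL8, by 1.44 and 1.23. For CCL15 the filter fixed that direction. Across agents CXCL8 in LR3 differed from LR2 by 1.46 ± 0.72 (adjusted p = 0.204). It was called without the parental ceritinib array (1.19, adjusted p = 0.00264) and without the untreated parental array (1.67, adjusted p = 0.0422).

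The wider pathways were described from lists of related genes. Among prostaglandin genes, 3 of 12 tested were called higher in LR2 and 0 lower, against 12.8% and 9.68% of all genes, and 4 higher and 2 lower in LR3, against 9.53% and 12.1%, relative to parental cells. PLA2G4A, the phospholipase that releases arachidonic acid, was 9.14 with ceritinib and 9.27 untreated in LR3 cells, against 8.36 to 8.40 in parental cells. It rose by 0.83 ± 0.09 in LR3 (adjusted p = 0.000769). HPGD, which degrades prostaglandin E2, rose by 0.75 ± 0.10 in LR3 (adjusted p = 0.0029) and by 1.11 ± 0.09 in LR2 (adjusted p = 0.000253). AKR1C3, a reductase that also acts on prostaglandins, rose by 1.18 ± 0.10 in LR3 and by 1.68 ± 0.08 in LR2, and its near copies may share its probe sets. CBR1, a carbonyl reductase, rose by 0.46 ± 0.08 in LR2. In LR3 CBR1 was also above parental cells, by 0.54 with ceritinib and 0.32 untreated. PTGR2, a prostaglandin reductase, fell by 0.55 ± 0.08 in LR3. PTGS1, the constitutive cyclooxygenase, was dim on all arrays at 4.0 to 4.46. In LR3 PLA2G4A, PTGS2 and PTGES were called higher along with HPGD of prostaglandin E2 breakdown, while the other prostaglandin E synthases PTGES2 (0.02 ± 0.09, adjusted p = 0.877) and PTGES3 (0.05 ± 0.08, adjusted p = 0.692) were not called.

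Of the receptors, CXCR1, CXCR2, CCR1, CCR6 and the prostaglandin receptors PTGER1 to PTGER4 were dim on every array. The gp130 chain IL6ST was bright. It was 7.99 to 8.01 in LR3 cells and 7.87 to 8.41 in LR2 cells, against 8.29 to 8.70 in parental cells, and fell by 0.43 ± 0.10 in LR3 (adjusted p = 0.0241) and by 0.37 ± 0.09 in LR2 (adjusted p = 0.0216). IL6R, the IL6 receptor chain, rose by 0.39 ± 0.11 in LR3 (adjusted p = 0.0385). LIFR, the LIF receptor, was 7.01 with ceritinib and 7.05 with crizotinib in parental cells, against 6.29 untreated, with no call. OSMR was the only other receptor tested.

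Of 25 other chemokine ligands 23 had a probe set of their own and 4 were bright enough to test. CXCL17, a chemokine of airway epithelium, was 8.05 to 8.32 in LR2 cells, against 6.61 to 6.87 in parental cells, and rose by 1.46 ± 0.09 there (adjusted p = 8.3e-05). It was 6.42 to 6.52 in LR3 cells, 1.72 ± 0.11 below LR2 (adjusted p = 8.95e-05). CXCL16, a membrane-bound chemokine, rose by 0.31 ± 0.09 in LR2 (adjusted p = 0.0358). CXCL5 and CXCL6, the nearest relatives of the CXCL genes above, were dim on all arrays. Of 28 other cytokines 26 had a probe set of their own and 8 were tested. TNFSF13B, the B-cell factor BAFF, rose by 0.53 ± 0.14 in LR3 (adjusted p = 0.0335) and fell by 0.45 ± 0.12 in LR2 (adjusted p = 0.0333). It was dim on all LR2 arrays (4.71 to 5.07) and on the untreated parental array (5.15), and the filter favoured a lower value in LR2. IL1A, IL1B and TNF were dim on all arrays.

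NF-kB pathway genes had 6 of 20 tested members called higher and 1 lower in LR2, against 12.8% and 9.68% of all genes, and 2 higher and 3 lower in LR3, against 9.53% and 12.1%. The LR3 counts are near the shares of all genes. Their list medians of 0.10 and 0.00 stood beside 0.02 and 0.01 for all genes. NFKBIZ, an atypical IkB protein, rose by 0.82 ± 0.10 in LR2 (adjusted p = 0.00126), and the adaptor MYD88 fell by 0.57 ± 0.09 in LR3 (adjusted p = 0.00413). TNFAIP2 rose by 0.88 ± 0.10 in LR3 (adjusted p = 0.00124). The median difference of inhibitor from untreated arrays was 0.02 with ceritinib in LR3 cells, -0.06 with crizotinib and 0.14 with ceritinib in LR2 cells, and 0.00 with crizotinib and -0.09 with ceritinib in parental cells. Single members differed both ways: in parental cells with crizotinib the kinase MAP3K14 differed by -0.88, the IkB-like protein BCL3 by -0.69 and TNIP1, an inhibitor of the pathway, by 0.64. These 3 were picked after their values were seen. The count 2-fold lower was 1 of 20 with crizotinib in LR2 cells (MAP3K14, 4.6 against 5.88 untreated) and 0 of 20 in the other pairs.

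ERK and AP-1 output genes, which report signalling through the MAP kinase cascade, had 18 of 18 members tested. Like the 10 genes, this list was chosen with earlier results of these data known. In parental cells 10 were 2-fold lower with crizotinib (median -1.26), against 0.741% of all genes, and 11 with ceritinib (median -1.31), against 0.902%. In LR2 cells 10 were with crizotinib (median -1.17), against 0.693%, and 1 with ceritinib (median -0.13), against 0.0095%. In LR3 cells 0 were with ceritinib (median -0.10), against 0%. The 3 pairs with low medians for this list were also those in which CXCL8, LIF, PTGS2 and CXCL2 were each 2-fold or more below their line's untreated array. Between lines 2 of 18 were called higher in LR3, against 9.53% of all genes, a share near that of all genes. In LR2 1 of 18 was, against 12.8%, which is no more than the share of all genes. SPRY2, a feedback inhibitor of receptor signalling, rose by 1.33 ± 0.31 in LR2 (adjusted p = 0.0192), and ETV4, an ETS transcription factor, by 0.85 ± 0.16 in LR3 (adjusted p = 0.0093). ATF3, a stress-induced factor of the AP-1 class, rose by 0.41 ± 0.12 in LR3 (adjusted p = 0.0485).

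**Figure D5:**
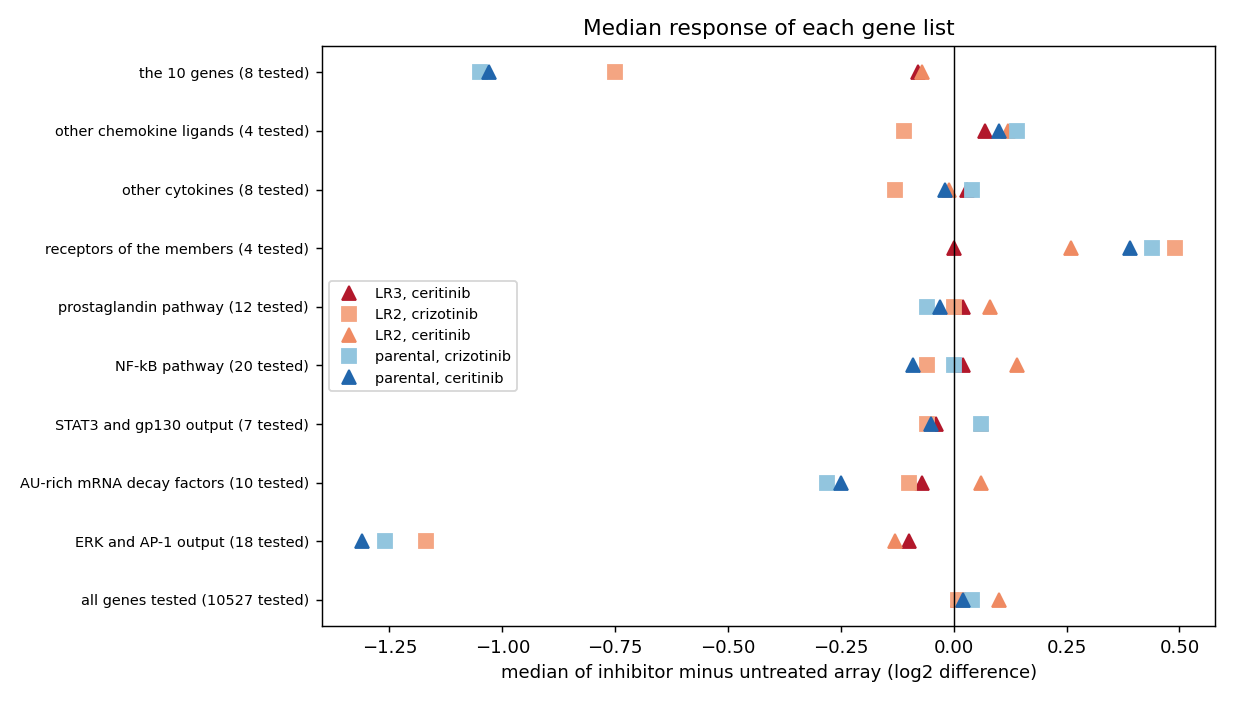
Median log2 difference of inhibitor from untreated arrays (horizontal axis) for the members among the 10 genes that were tested, each related list and all genes tested, with the number tested in brackets. The members and the ERK and AP-1 list are low for both parental pairs and for LR2 crizotinib (-1.05 to -0.75 and -1.31 to -1.17) and near 0 for the ceritinib pairs of LR2 and LR3.

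The genes whose levels ran most like each member over the same 8 arrays were taken from those with a range of at least 1, as a description. For CXCL8 they were SPRY1 (r = 0.986), ERRFI1 (r = 0.983) and ATF3 (r = 0.981). SPRY1 and ERRFI1 are feedback inhibitors of receptor tyrosine kinase signalling. For CXCL2 they were SPRED2 (r = 0.98), EPHA4 and UTP15 (r = 0.977 each), and for LIF TMEM156 (r = 0.993), TOP1 (r = 0.99) and BHLHE40 (r = 0.971). For CXCL1 they were ATF3 (r = 0.99), ERRFI1 and CXCL8 (r = 0.972 each). For PTGS2 they were TOR4A (r = 0.989), the stress cytokine GDF15 (r = 0.977) and CD55 (r = 0.975). PTGES ran with CRIP2 (r = 0.989), RAP1GAP (r = 0.985) and HOPX (r = 0.979), and CCL15 with ANXA9 (r = 0.984), MSN (r = 0.976) and IFI35 (r = 0.962). CCL20 had the loosest matches, FHL2 (r = 0.879), FRMD6 (r = 0.864) and FERMT1 (r = 0.852). These values describe 8 arrays of 3 related lines and carry no test.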

How the data were processed

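Per the labels' protocols, total RNA (RNeasy kit) from 8 samples was prepared with a 3' IVT kit, biotin-labelled and hybridised to 1 array each. The authors deposited RMA signals on the log2 scale, going by the submitters' processing notes. The RMA software and version and any genome build are not given in the sources used here. Of 49395 probe sets, 102 were controls, 44988 had 1 gene symbol in the platform's probe table (22 of them for the 10 genes), 1832 had several and 2473 had none. The probe set with the highest mean stood for each of 18132 genes. A gene was tested when above 5.36, the 50th percentile of all values, on at least 2 arrays (10527 genes). With 1-colour arrays their number limits the precision.

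limma 3.58.1 in R 4.3.3 compared lines in an additive model of line plus agent on all 8 arrays (3 residual degrees of freedom), and inhibitor responses with 6 conditions (2 residual degrees of freedom). A call means an adjusted p (Benjamini-Hochberg, across the 10527 genes) under 0.05. The fits were also run on simulated data with independent noise and no line differences that vary with agent. That run checks the code and not the calls made here. Single-array differences have no test and are counted past 2-fold. All 10 genes are named; from each related list, up to 4 called members with the largest difference were eligible, not all of which are named, and dim or unchanged members are named only for what the list holds. Members and lists were chosen with earlier results of these data known. Promoter windows came from RefSeq.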

Additional observations from a re-analysis of the deposited data

How the results depend on the processing

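Of 1024 member values recomputed under other settings, 995 kept their direction or stayed uncalled, 22 lost their call, 6 gained one and 1 reversed: without the parental ceritinib array CXCL8 in LR2 against parental cells turned to -0.7 (range -0.7 to 1.23 when 1 array was left out). The same omission gave LIF -0.64 there. Member calls in LR2 against parental cells numbered 2, and 1 with a filter of at least 4 arrays above the floor, without probe sets of cross-hybridization suffixes (which drops CCL15) or with no agent term, and 2 to 5 when 1 array was left out. In LR3 against parental cells they numbered 4, 2 with no agent term and 0 with matched arrays alone, which left 2 pairs, and 3 to 4 when 1 array was left out. In LR3 against LR2 they numbered 4, and 3 to 5 when 1 array was left out. The CCL20 call against LR2 was lost in 10 of 18 settings (adjusted p of up to 0.34) and that against parental cells in 4 (up to 0.193). The PTGS2 call against parental cells was lost in 4 (up to 0.179). The PTGES call was kept in 18 of 18 settings in LR2 and lost in 1 in LR3, with matched arrays alone. Over all genes, calls for LR2 versus parental cells numbered 2369 (1350 higher, 1019 lower, and 1178 and 1408 with quantile normalization), 1478 with no agent term and 1146 to 2116 when 1 array was left out. For LR3 versus parental cells they numbered 2274 (1003 higher, 1271 lower, and 1498 and 1223 with each array centred), 0 with matched arrays alone, and 632 to 2311 when 1 array was left out. For LR3 versus LR2 they numbered 2064 (767 higher, 1297 lower, 1290 and 1103 with each array centred, and 1100 and 1217 with quantile normalization), 544 with matched arrays alone, and 710 to 2630 when 1 array was left out. The cause of these changes was not tested beyond the loss of arrays or genes that each setting brings. The 5 inhibitor comparisons had 0 calls in every setting run, and those without an LR3 array could not be fitted for LR3. No paired analysis was possible because the labels give no replicate numbers; agent matched the arrays instead. Past-2-fold counts moved with the mean of all probe sets in place of the brightest, as for LR3 against parental cells with ceritinib (4 of 8, and 5 with quantile normalization, against 6).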

Other observations

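Factors that bind AU-rich mRNAs, such as those of cytokines, were all bright, 10 of 10 tested. In LR3 1 was called higher and 2 lower, against 9.53% and 12.1% of all genes, and in LR2 1 higher and 1 lower, against 12.8% and 9.68%, shares near those of all genes. ZFP36L1, which promotes the decay of such mRNAs, was 9.60 with ceritinib and 9.48 untreated in LR3 cells and 10.35 to 10.64 in LR2 cells, against 10.87 to 11.21 in parental cells, so the 3 lines did not overlap. It fell by 1.55 ± 0.10 or 2.92-fold in LR3 (limma adjusted p = 0.000104) and by 0.48 ± 0.09 in LR2 (adjusted p = 0.00762). Its relative ZFP36L2 went the other way, rising by 0.31 ± 0.08 in LR3 (adjusted p = 0.0335) and by 0.50 ± 0.07 in LR2 (adjusted p = 0.00247). KHSRP, another decay factor, fell by 0.34 ± 0.08 in LR3 (adjusted p = 0.019).

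Of STAT3 and gp130 output genes 7 of 19 were tested, and 3 were called lower in LR3, against 12.1% of all genes. They were the repressor BCL6 (-0.60 ± 0.12, adjusted p = 0.0117), the protease inhibitor TIMP1 (-0.42 ± 0.10, adjusted p = 0.0218) and the transcription factor CEBPB (-0.32 ± 0.08, adjusted p = 0.0317). In LR2 1 was called higher and 1 lower of 7, near the 22.5% of all genes called there. In LR2 TIMP1 fell by 1.32 ± 0.09 (adjusted p = 8.3e-05) and the kinase JAK1 rose by 0.29 ± 0.09 (adjusted p = 0.0478). SOCS3, a feedback gene of this pathway, was dim on every array at 4.3 to 4.6.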
